A study of Mus musculus with 6 samples.

Results

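The Egr and Nr4a transcription factors, Npas4 and Arc are genes that neurons switch on when they are active. Their transcripts were followed in cells of newborn mice that the labels call cortical neurons and that also held transcripts of glia. The mice had received a sponge for the microRNA miR-17-5p or a control plasmid. The 9 genes, Egr1 to Egr4, Nr4a1 to Nr4a3, Npas4 and Arc, were taken by their symbols from a table of 35510 genes. The set was chosen by family, with the sponge and control values of activity genes in these libraries already known, and so was selected on the sponge against control difference. Their differences between the groups are therefore given as a description. All 9 had a mean of at least 10 normalised counts over the 6 libraries, the filter for the fit across all genes. A normalised count is a gene's read count divided by 1 size factor per library.

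The brains came from wild-type Swiss mice (RjOrl:SWISS), an outbred stock. In both groups a plasmid was introduced into the cortex in utero at E15.5 and cells were taken on postnatal day 0. The control plasmid went into 3 libraries and the plasmid with the miR-17-5p sponge, a transcript with repeated binding sites that holds the microRNA back from its targets, into 3 others. Each library was made from 50 ng of RNA of about 100000 cells from about 10 pooled brains, and the column names mark the cells as sorted. The promoter of the plasmids is not given in the sources used here, nor is the share of sorted cells that carried them. The labels do not say whether the libraries came from separate litters or days, so the spread between them may be partly technical.

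Immediate early genes need no new protein to be transcribed. Calcium entry and growth factor signals reach them through the kinases ERK and CaMKIV and the DNA-bound factors SRF, ELK1 and CREB, and their transcripts appear and decay within a short time. The Egr proteins are zinc finger transcription factors, the Nr4a proteins are orphan nuclear receptors, Npas4 is a transcription factor of the bHLH-PAS class that responds to calcium in neurons, and Arc is a synaptic protein that promotes the uptake of AMPA receptors. In the cortex these genes serve as markers of recently active neurons and shape synapses and dendrites. Their transcripts also respond to growth factors and to handling of the tissue.

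The sponge was built against miR-17-5p, so its sequence and its seed matches in the members' 3′ UTRs are shown first. The seed, bases 2 to 8 in capitals, is the part that pairs with a target. The microRNA sequence is from RefSeq on GRCm38.p6 (chr14:115043684-115043706, plus strand).
mmu-miR-17-5p: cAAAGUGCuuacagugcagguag
The 7-base match to this seed is GCACTTT, and GCACTTTA is the 8-base site. Of the 9 members, 4 carried at least 1 match of 7 bases in the longest annotated 3′ UTR and 5 carried none. Across the 15198 tested genes with such a UTR, 14.1% held the 7-base match and 4.34% the 8-base site. The matches below are in capitals, read 5′ to 3′ along the transcript with GRCm38 positions.
Egr2, 8-base site, chr10:67541397-67541420, plus strand: aaactgatgtgGCACTTTaatggc
Egr3, chr14:70080095-70080118, plus strand: tagggctggagGCACTTTctcctt
Nr4a2, chr2:57107081-57107104, minus strand: gaaattactgaGCACTTTgaattt
Nr4a3, first match, chr4:48083632-48083655, plus strand: ttgctgacaaaGCACTTTtggatg
Nr4a3, second match, chr4:48084991-48085014, plus strand: agcactgtttaGCACTTTgatatg
The 3′ UTRs of the carriers were 1200 bases long for Egr2, 2645 for Egr3, 1326 for Nr4a2 and 3095 for Nr4a3, against a median of 1167 bases over the tested genes. A match of letters is a description and not evidence of binding.

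The start regions of 6 members were read from RefSeq (250 bases before to 50 after the start). Egr1, Egr3 and Arc were not among them, so the motif counts do not cover these 3 and say nothing about their sites. The core of the CREB site, TGACG, was searched on both strands. It was present for all 6, namely Egr2, Egr4, Nr4a1, Nr4a2, Nr4a3 and Npas4, and for 23.0% of the 27025 genes in that collection. The full 8-base site TGACGTCA was in 0 of the 6 and in 2.03% of genes. The CArG box, the site of SRF, was in 1 of the 6, Egr2, and in 1.81% of genes. The Egr site GCGTGGGCG was in 0 of the 6 and in 0.707% of genes, and its variant GCGGGGGCG in 1, Nr4a1, and in 3.31% of genes. The windows below show the CArG box of Egr2 and 1 TGACG, or its reverse complement CGTCA, for each of the others, in capitals.
Egr2, CArG box, chr10:67537787-67537816, plus strand: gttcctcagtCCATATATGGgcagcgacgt
Egr4, chr6:85513684-85513708, minus strand: tggtcatttaCGTCAcggcgccagg
Nr4a1, chr15:101266796-101266820, plus strand: cctctccatgCGTCAcggagcgctt
Nr4a2, chr2:57124133-57124157, minus strand: cggctgcacgCGTCAcggagcccgg
Nr4a3, chr4:48045148-48045172, plus strand: gtggcataaaTGACGtgccgagaga
Npas4, chr19:4990126-4990150, minus strand: cgtcacgggaTGACGtcggaagtct
These motifs were read in 1 window per annotated start, so a letter match outside it was not looked for.

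Depth was inferred from the normalised table, in which every value of a library was a whole multiple of 1 step, to within 9.55e-09 of a step. The multiples summed to 115445910 to 138254412 per library. Control library 1 stood apart: its correlation with the other libraries across genes was between 0.942 and 0.954, and no pair of the others was below 0.974. The difference of each member is therefore also given without it, and those of other genes only where stated. All 10 cortical neuron markers were measured, among them Dcx, Neurod2 and Bcl11b, with a summed level of 144146 to 173947 normalised counts per kb of exon. None of the 10 astrocyte and radial glia markers was at 0, and their sum was 188862 to 316747 per kb. Oligodendrocyte lineage markers summed to 33098 to 47414 per kb, vascular and meningeal markers to 1965 to 3779, and microglia markers to 1708 to 3418. The sorted cells thus held transcripts of glia beside those of neurons, and in such bulk samples fewer cells of a type and less RNA per cell cannot be told apart.

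The members spanned a wide range of levels. Per kb of exon, the mean over the 6 libraries was 7420 normalised counts for Egr1, 609 for Nr4a1, 342 for Nr4a3, 251 for Arc, 112 for Nr4a2, 109.7 for Npas4, 101 for Egr2, 59.1 for Egr3 and 5.57 for Egr4. Egr1 lay above 96.8% of the tested genes on this scale and Egr4 above 3.30%. Egr1 was 7.82 to 14.4 times as high as Nr4a1 in the same library, and Egr3 was 8.36 to 13.1 times as high as Egr4. Arc was above Nr4a2 in 6 of 6 libraries, by 1.70 to 2.78 times. These 3 steps were the ones where the ranges of neighbours did not meet. Nr4a1 was above Nr4a3 in 6 of 6 libraries, but the ranges overlapped. Nr4a3 exceeded Arc in 4 of 6 libraries, and Nr4a2 exceeded Npas4 in 3 of 6, so these neighbours did not differ beyond their spread. The same held for Npas4 and Egr2, in that order in 2 of 6 libraries. Egr2 was above Egr3 in 5 of 6.

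**Figure D1:**
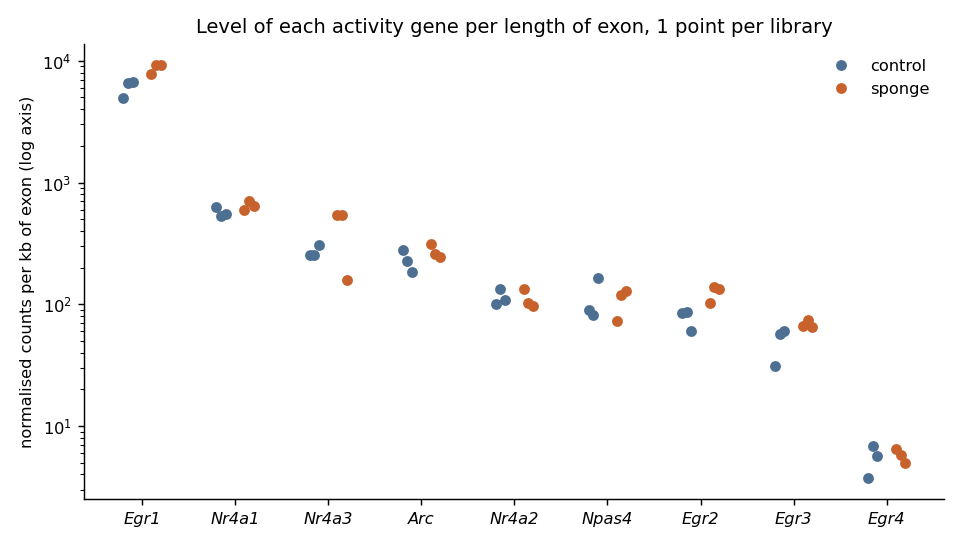
Level of each activity gene in normalised counts per kb of exon (log axis), 1 point per library, with control libraries in blue and sponge libraries in orange, ordered by the mean. Egr1 lies between 4963 and 9286 in every library and Egr4 between 3.73 and 6.85.

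The members that separated the groups were 3 of the 4 Egr genes. Egr1, Egr2 and Egr3 had all 3 sponge libraries above all 3 controls, and the other 6 members overlapped between the groups. Among all 22479 tested genes, 6.17% had all sponge libraries above all controls and 5.04% had all below, and nothing is read from the members' count, because the choice of members knew this contrast. No member passed the test across all genes. With limma, 0 of 22479 genes were called at an adjusted p under 0.05 (0.0%), and the members' adjusted p-values were between 0.925 and 0.987. Before adjustment, 650 genes (2.89%) had a limma p under 0.05, and 1.58% of all genes were higher in the sponge at that level. The 2 members among these were Egr1 and Egr2, both higher.

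**Figure D2:**
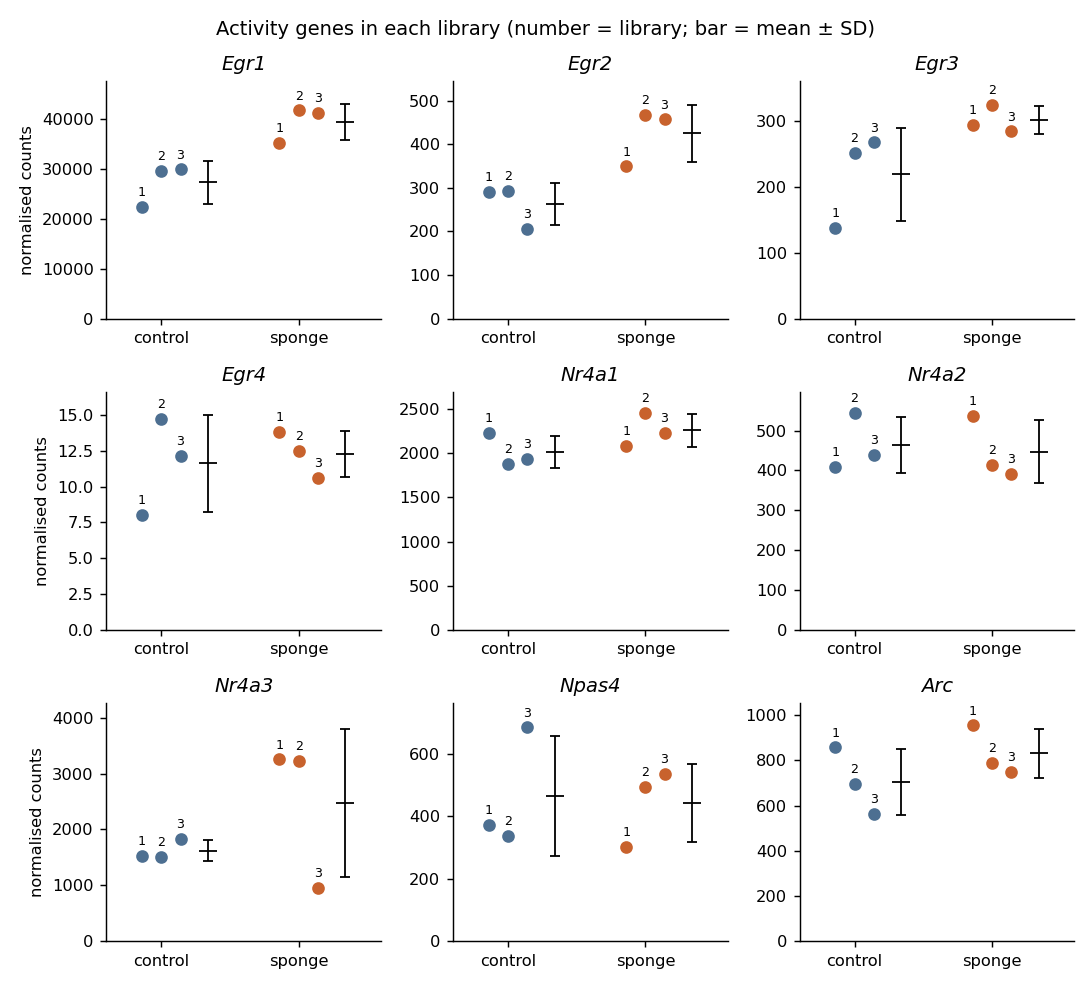
Normalised counts of the 9 activity genes in each library on linear axes that start at 0, with control libraries in blue and sponge libraries in orange, library numbers above the points, and mean ± SD as black bars (n = 3 per group). Egr1, Egr2 and Egr3 show no overlap between groups, while the sponge libraries of Nr4a3 lie at 3251, 3228 and 943.

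Egr1 is the most widely used marker of neuronal activity in the family and was by far its most abundant member. It measured 22254, 29603 and 29840 normalised counts in control libraries 1, 2 and 3, and 35113, 41639 and 41171 in sponge libraries 1, 2 and 3. The lowest sponge library was above the highest control, and control library 1 was the lowest of the 6. The means were 27232 ± 4313 in the control and 39308 ± 3640 in the sponge libraries (SD, n = 3 each), a log2 difference of 0.54 ± 0.15 (SE; log2(value + 1), 95% interval 0.18 to 0.90). Without control library 1 the log2 difference was 0.40 ± 0.09, and over all 14 alternatives it ran from 0.40 to 0.62. In the authors' deposited table Egr1 had a log2 fold change of 0.53 with a p of 0.0045 and an adjusted p of 0.9954. Of the 10812 genes in the authors' deposited table, 2.05% had a p under 0.05 and 0.00925% an adjusted p under 0.05. Its gene lies on chromosome 18 from 34859823 to 34864984 (GRCm38, plus strand).

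Egr2, known for hindbrain patterning and for the myelin programme of Schwann cells, had the largest log2 difference of the 9 members. Its values were 290, 292 and 206 normalised counts in control libraries 1, 2 and 3, and 349, 468 and 457 in sponge libraries 1, 2 and 3. Sponge library 1 was nearest to the controls and control library 3 the lowest. The means were 263 ± 49.0 and 424 ± 65.7 (SD, n = 3 each), with a log2 difference of 0.69 ± 0.24 (SE; 95% interval 0.13 to 1.26). Leaving out control library 1 gave 0.77, and leaving out control library 3 gave 0.53. Egr2 lies on chromosome 10 from 67535475 to 67542188 and carries the 8-base seed match shown above.

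Egr3, which acts in activity-dependent gene expression and in muscle spindle development, measured 138, 252 and 268 normalised counts in control libraries 1, 2 and 3. The sponge libraries measured 295, 325 and 284. The separation from control libraries 2 and 3 was narrow, since the highest control, 268, lay close to the lowest sponge library, 284. The log2 difference was 0.51 ± 0.30 (SE; 95% interval −0.19 to 1.22) and 0.21 ± 0.21 without control library 1, which held the lowest value. Control library 1 minus the mean of the other 5 libraries was −1.03 on the log2 scale for Egr3 and −0.66 for Egr1.

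Egr4 was close to the filter. It measured 8.0, 14.7 and 12.1 normalised counts in the controls and 13.8, 12.5 and 10.6 in the sponge libraries, and the groups overlapped. The log2 difference was 0.11 ± 0.62 (SE; 95% interval −1.33 to 1.54) and −0.12 without control library 1. Changes of either sign larger than that seen for Egr2 lay within this interval, so a difference was not detectable at this level of expression. Over the 4 Egr genes the median log2 difference was 0.53, and 0.30 without control library 1.

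**Figure D3:**
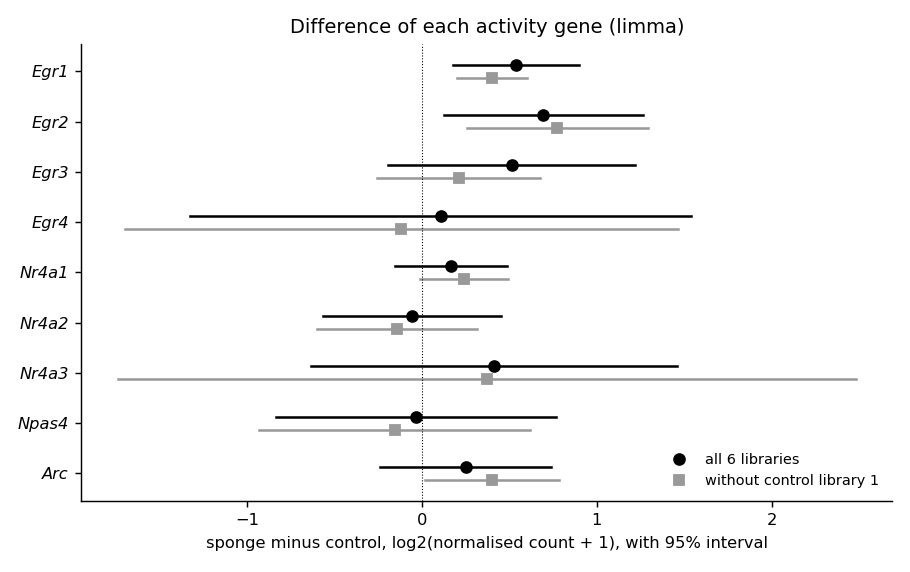
Sponge minus control for each activity gene on the log2(normalised count + 1) scale with the 95% interval from limma, with all 6 libraries (black circles) and without control library 1 (grey squares). The estimate for Egr2 is 0.69 and that for Npas4 −0.04, and leaving out control library 1 lowers the estimate for Egr3 from 0.51 to 0.21.

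The 3 Nr4a receptors overlapped between the groups and differed in sign and spread. Nr4a1, a nuclear receptor that responds to many stimuli and can pair with RXR, measured 2227, 1879 and 1937 normalised counts in control libraries 1, 2 and 3, and 2085, 2461 and 2232 in the sponge libraries. The groups overlapped through control library 1, which was higher than sponge library 1. Its log2 difference was 0.17 ± 0.14 (SE; 95% interval −0.16 to 0.49), and 0.24 without control library 1. Nr4a1 had the smallest spread of the 9, with an SD within groups of 0.13 on the log2 scale.

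Nr4a2, which is needed for dopamine neurons and is also expressed in deep cortical cells, measured 409, 544 and 439 in the controls and 537, 414 and 390.5 in the sponge libraries. The highest control and the highest sponge library were nearly equal. The log2 difference was −0.06 ± 0.22 (SE; 95% interval −0.57 to 0.45), and −0.14 without control library 1. The sponge value was the higher in 3 of 9 pairs of a sponge and a control library. Nr4a2 carries 1 of the seed matches shown above.

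Nr4a3 had the widest spread. It measured 1524, 1507 and 1827 normalised counts in control libraries 1, 2 and 3, and 3251, 3228 and 943 in sponge libraries 1, 2 and 3. Sponge libraries 1 and 2 were nearly alike and above every control, whereas sponge library 3 was the lowest of the 6. The sponge libraries thus spanned a factor of 3.45 and the controls a factor of 1.21. The SD within groups was 0.73 on the log2 scale, above that of 98.1% of the 2584 tested genes whose mean was within 1.5 times that of Nr4a3. The log2 difference was 0.41 ± 0.45 (SE; 95% interval −0.63 to 1.46), and 0.37 without control library 1. It was 1.01 without sponge library 3, 0.11 without sponge library 1 and 0.12 without sponge library 2, so single sponge libraries set its size. In the authors' deposited table it was 0.61 with an adjusted p of 0.9954, and Nr4a1 had 0.17.

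Npas4 and Arc, the members most closely tied to neuronal activity, differed in their order of libraries. Npas4 measured 372, 335 and 685 normalised counts in control libraries 1, 2 and 3, and 301, 494 and 534 in sponge libraries 1, 2 and 3. Its highest value was in control library 3 and its lowest in sponge library 1, and the groups overlapped. The log2 difference was −0.04 ± 0.35 (SE; 95% interval −0.84 to 0.77), with −0.16 without control library 1, 0.28 without control library 3 and 0.22 without sponge library 1.

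Arc measured 857, 695 and 563 normalised counts in control libraries 1, 2 and 3, and 955, 789 and 748 in sponge libraries 1, 2 and 3. Control library 1 was above sponge libraries 2 and 3, and the sponge value was the higher in 7 of 9 pairs. The log2 difference was 0.25 ± 0.21 (SE; 95% interval −0.24 to 0.74), 0.40 without control library 1, 0.10 without control library 3 and 0.14 without sponge library 1. The libraries with the highest Arc, sponge library 1 and control library 1, also had the highest sums of the 10 vascular and meningeal markers. These were 15970 and 15824 normalised counts, against 10227 to 13572 in the other 4. Pdgfrb alone was 7548 in sponge library 1. With each marker centred on its own mean, the list's median log2 value was 0.60 in control library 1. It was 0.36 in sponge library 1 and 0.33 in sponge library 3. Sponge library 1 and control library 1 also had the highest sums of the 10 astrocyte and radial glia markers, 622351 and 647746, against 432134 to 499518 in the other 4. Single markers of that list differed in control library 1. Slc1a3 and Aqp4 were there at their lowest of the 6 libraries, 92859 and 4264, and Aldh1l1 at its highest, 47676. Not all marker lists had this order, since the microglia sum was 5369 in sponge library 1 and 5419 in sponge library 2. None of the markers in these lists was at 0, and their part in the Arc values was not tested.

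Over the 9 members, 7 had a log2 difference above 0 and 2 below, with a median of 0.25. Over all tested genes 50.9% were above 0 and the median was 0.01. Without control library 1 the members' median was 0.24 and 6 were above 0, against 52.0% of all tested genes. In that comparison the sponge libraries were above both remaining controls for 5 members, Egr1, Egr2, Egr3, Nr4a1 and Arc, and for 13.4% of all tested genes. At an unadjusted p under 0.05, 3 members were higher there, Egr1, Egr2 and Arc, and 4.0% of all genes; limma called 2 genes of 22479 (0.0089%), neither of them a member. The 4 members with a 7-base seed match had log2 differences from −0.06 to 0.69, and the 5 without had −0.04 to 0.54. With all 6 libraries the medians were 0.46 and 0.17, and the ranges overlapped. Without control library 1 the carriers had 0.77 (Egr2), 0.21 (Egr3), −0.14 (Nr4a2) and 0.37 (Nr4a3). The others then had 0.40 (Egr1), −0.12 (Egr4), 0.24 (Nr4a1), −0.16 (Npas4) and 0.40 (Arc), so the 2 sets lay closer together. Whether the difference depended on a match was not tested.

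Within the libraries the members did not form 1 profile. In sponge library 2, 8 of 9 members were above their own mean over the 6 libraries, in sponge library 1 it was 7, and in sponge library 3 it was 5. In the controls the numbers were 2, 3 and 3. The members were chosen with this contrast known, so these counts are a description, given without the matching share of all genes. The most alike pairs by the root-mean-square difference of their centred log2 values over the 6 libraries were Egr4 and Nr4a2 (0.18), Egr1 and Egr3 (0.18) and Nr4a1 and Arc (0.21). The least alike were Nr4a3 and Npas4 (0.84). Low expression, as in Egr4, adds counting error to this measure.

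**Figure D4:**
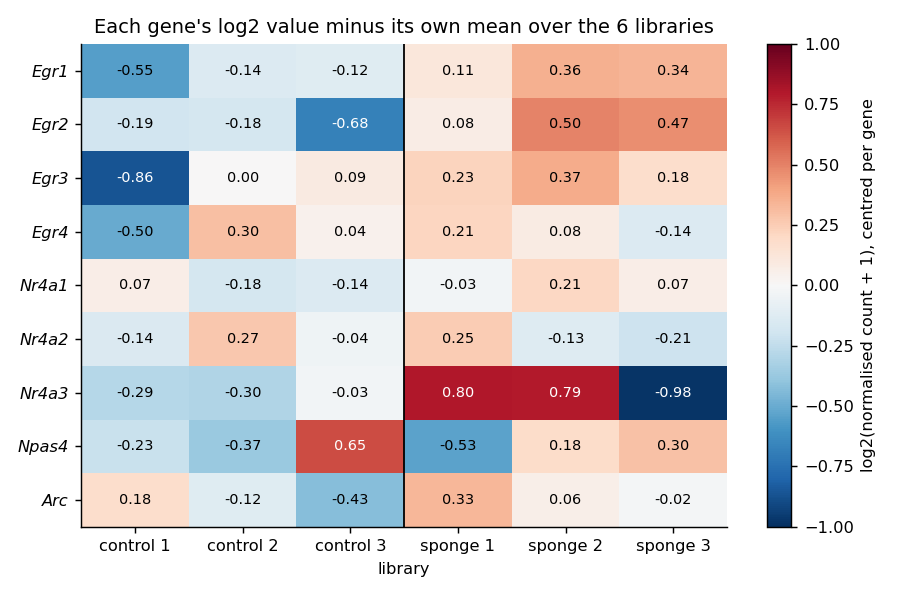
Log2(normalised count + 1) of each activity gene minus its own mean over the 6 libraries, with a black line between control and sponge libraries. Egr1 and Egr2 are below 0 in all 3 controls and above 0 in all 3 sponge libraries, whereas Nr4a3 is at 0.80 and 0.79 in 2 sponge libraries and at −0.98 in the third.

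By the same measure over all tested genes with a mean of at least 50, the genes most like Egr1 were Plppr4 (0.07) and Itgb8 (0.08). Itgb8, an integrin subunit, measured 7857, 11738 and 10693 normalised counts in the controls and 14057, 14910 and 16073 in the sponge libraries. Its groups did not overlap, but it was picked for its likeness to Egr1, so this is no separate observation. The gene most like Egr2 was Pllp (0.11), followed by the immediate early gene Ier3 (0.13), and H2-DMa was among the nearest to Egr3 (0.05). Arc was nearest to Tnfrsf1a (0.03), a receptor of tumour necrosis factor, and to A2m (0.04). Nothing lay close to Nr4a3, for which the smallest difference, to the peptidase gene Ace, was 0.26. Over only 6 libraries a small difference between profiles says little, and it is given with no test.

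Other genes of the activity programme gave the setting for the members. Of 22 other immediate early genes, 19 had a log2 difference above 0 and 3 below, with a median of 0.20, and 0.37 without control library 1. None passed the limma threshold over all 6 libraries, and 1, Fos, passed without control library 1 (0.83, limma adjusted p = 0.0399). Fosb, a partner in AP-1, measured 360, 338 and 875 normalised counts in the controls and 605, 1559 and 1370 in the sponge libraries. It overlapped between the groups through control library 3, and its log2 difference was 1.20 ± 0.47 (SE).

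Of the 28 kinases and factors upstream of the members, 20 were above 0 and 8 below, with a median of 0.08, and −0.01 without control library 1. Camk4, the gene of the calcium-dependent kinase that phosphorylates CREB, measured 144, 335 and 278 normalised counts in control libraries 1, 2 and 3, and 637, 665 and 432 in the sponge libraries. All sponge libraries were above all controls, and the log2 difference was 1.25 ± 0.35 (SE; limma adjusted p = 0.925) and 0.89 without control library 1. The coactivator gene Ep300 had 0.49 ± 0.31, and 0.09 without control library 1. Of 14 partners and corepressors, 8 were above 0 and 6 below (median 0.01). Nab1, a corepressor of the Egr proteins, had 0.34 ± 0.15 with no overlap between the groups, and 0.21 without control library 1. Rxrg, a possible partner of the Nr4a receptors, had −0.45 ± 0.35, and −0.02 without control library 1.

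Late-response genes, which follow the immediate early factors, lay more often below 0 than above. Of 18, 5 were above 0 and 13 below, with a median log2 difference of −0.17. Without control library 1, 7 were above 0 and the median was −0.05. None passed the limma threshold in either fit. Rasgrp1, an activator of Ras, measured 795, 785 and 756 normalised counts in the controls and 834, 1505 and 2081 in the sponge libraries, and did not overlap (log2 difference 0.82 ± 0.31, SE). Acan, the gene of the proteoglycan aggrecan, measured 102, 70.5 and 48.5 in the controls and 46.3, 16.7 and 36.2 in the sponge libraries (−1.18 ± 0.51). Of 12 heat-shock chaperones, 6 were above 0 and 6 below (median 0.01).

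**Figure D5:**
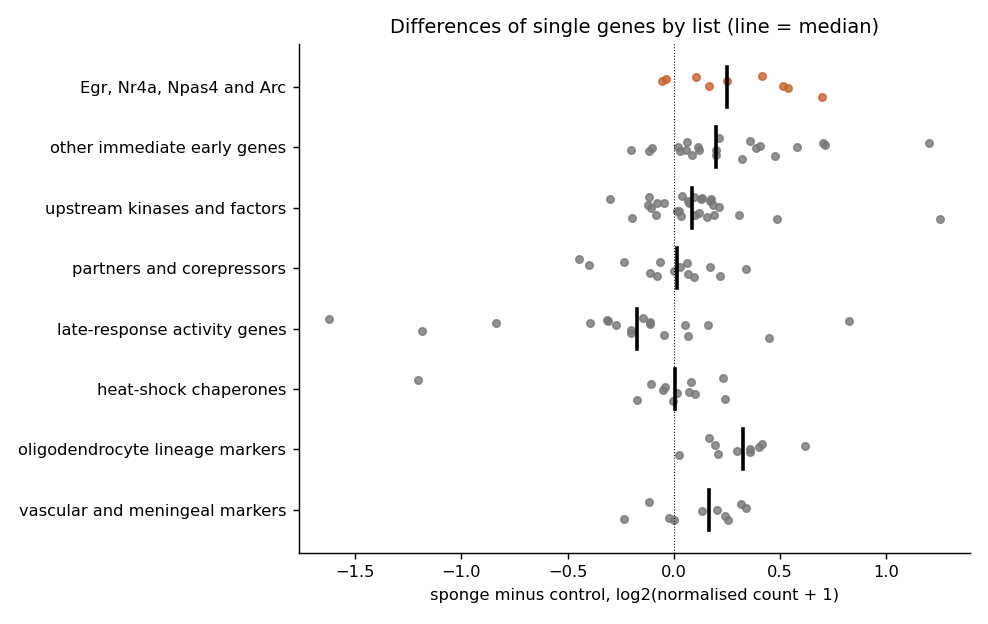
Sponge minus control of single genes on the log2(normalised count + 1) scale by list, with the members in orange, other lists in grey and the median of each list as a black line. The medians are 0.25 for the members, 0.20 for other immediate early genes, −0.17 for late-response genes and 0.33 for oligodendrocyte lineage markers.

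No marker of another cell type passed the limma threshold, but the oligodendrocyte lineage sums separated the groups as Egr1, Egr2 and Egr3 did. All 10 oligodendrocyte lineage markers were above 0, with a median of 0.33 and 0.27 without control library 1. Their sum was 94481 to 117071 normalised counts in the controls and 122726 to 140029 in the sponge libraries, without overlap, and none was at 0. Olig1 alone made up a large part of it, with 44567, 49052 and 42084 in the controls and 53911, 59941 and 60138 in the sponge libraries. Singly, 5 of the 10 markers had all sponge libraries above all controls, against 6.17% of all tested genes. For interneuron markers 1 was above 0 and 9 below (median −0.24), and their sum was 54279 to 77730 in the controls and 42067 to 79398 in the sponge libraries. The 10 microglia markers summed to 4216 to 8141 and 4745 to 5419, and the 8 erythroid markers to 1444 to 32264 and 3090 to 4259, with the highest value of each in control library 1. The part of these cells in the members' values was not tested.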

How the data were processed

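Messenger RNA was sequenced from 3 control and 3 sponge libraries. Libraries were made with a stranded mRNA ligation kit, per the labels' protocols. STAR 2.7.6a and DESeq2 1.30.1 were used by the authors and the builds were mm10 and GRCm38, per the submitters' processing notes. The sources used here do not give how reads were assigned to genes, by which annotation, or whether strand was used. The deposited values are a signal, gene counts that the authors divided by 1 size factor per library. A second table deposited by the authors gives the mean normalised count (signal), a log2 fold change and p-values for 10812 genes with a mean of at least 1003, per the file headers, and holds 3 of the 9 members.

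The members and gene lists were chosen with earlier results of these data known. Of 35510 genes, the 22479 with a mean of at least 10 entered a linear model of log2(value + 1), fitted by limma 3.58.1 under R 4.3.3 (trend, robust, two-sided, Benjamini-Hochberg over all genes, threshold 0.05). This scale understates changes of low genes. All 9 members are named. From each other list, at most the 2 genes of largest difference and the 2 of smallest p are named, beside markers that define a cell type, and as likest genes up to 3 per member with a mean of at least 50. Gene positions, exon lengths and 3′ UTRs are from GENCODE M21 (GRCm38), which held 35389 of the identifiers. No annotated gene on either strand overlapped a member. The list entries Mkl1, Mkl2 and Cyr61 were matched through older symbols. The alternatives were other pseudocounts, filters, scalings, library weights, a block for the library number and leaving out each library.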

Additional observations from a re-analysis of the deposited data

How the results depend on the processing

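The number of genes called was 0 higher and 0 lower in the sponge. It was 3 and 1 with array quality weights, which gave control library 1 a weight of 0.13, and it ran from 0 to 2 higher and stayed at 0 lower when single libraries were left out. No member was called under any of 14 alternatives, the smallest member adjusted p being 0.168. Leaving out single libraries moved the members' median of 0.25 to between 0.12 (sponge library 2 left out) and 0.32. Of 125 alternative values for single members, 118 kept their sign and 7 turned. The ones that turned were Egr4 (−0.21 with array quality weights and −0.12 without control library 1), Nr4a2 (0.063 without control library 2 and 0.034 without sponge library 3, and down to −0.20 without sponge library 1) and Npas4 (0.29 with array quality weights, 0.28 without control library 3 and 0.22 without sponge library 1, and down to −0.23 without control library 2). Each of these estimates was smaller than its standard error with all 6 libraries, and the cause was not tested. Levels per kb moved by less than their spread between libraries under every scaling and with each library left out. Same-numbered libraries did not deviate together: the correlations of their deviations were 0.01, 0.01 and −0.05. The labels do not say whether equal numbers mark a shared litter or day, and so few correlations cannot settle it. The main fit used no pairing. With the replicate block, 0 genes were called in each direction and the members' median was 0.25. The count models planned as alternatives were not run. The whole multiples inferred from the normalised values were not taken as read counts and were used only for depth. Egr4, with a mean of 11.96 normalised counts, is limited by depth.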
